A study of Mus musculus with 8 samples.

Results

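The kinesins are motor proteins that walk along microtubules or take them apart, and the genes of this family were followed in pressure-loaded mouse hearts with a knockout of CITED4, a transcriptional co-regulator, and in floxed control hearts. Members were all genes whose symbol in the array annotation starts with Kif and a number or with Kifc and a number from 1 to 5, read from probe sets that carry a single symbol, with the probe set of the highest mean over the arrays for each gene. This gave 42 genes from 45 probe sets, of 22180 genes in all. A member was tested when its mean log2 signal reached 3.80 (the mean that 40% of the probe sets fell short of), which 37 of the 42 did, among 15086 genes tested in all. Of these, 12 are motors of the mitotic spindle and of cytokinesis (Kif2c, Kif4, Kif11, Kif14, Kif15, Kif18a, Kif18b, Kif20a, Kif20b, Kif22, Kif23 and Kifc1), and the other 25 of 30 tested are mostly motors of cargo transport and of cilia.

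The knockout hearts, labelled C4KO_TAC, came from 4 male C57Bl6N mice with a CITED4 knockout, 1 week after transverse aortic constriction (TAC), in which the aortic arch is tied narrower to load the left ventricle. Their controls, labelled F/FCtr_TAC, came from 4 male C57Bl6N mice called floxed control (the gene carries recombination sites), 1 week after the same operation. RNA of frozen heart tissue was measured, 1 Affymetrix array per sample, and each value is a log2 signal made by the authors with RMA. The sources used here do not give the age of the mice, the Cre driver or whether controls carried Cre. Every heart was under load, so no value shows what TAC itself does.

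The median log2 signal of an array was 4.29 to 4.33, and any pair of arrays correlated at 0.979 to 0.988 across probe sets. Precision is limited by the number of arrays. The labels are silent on litters and array runs, and p-values therefore cover the spread among these 8 samples alone. Cited4 was at 5.26, 5.15, 4.83 and 5.02 in knockout hearts and at 5.89, 5.76, 6.05 and 6.22 in control hearts. Each knockout heart lay below each control heart, as the labels require (difference -0.91 ± 0.12, SE; 53.1% of the control signal). Its limma adjusted p over all genes tested was 0.277, so the test did not call even the deleted gene. A gene that fails this test is therefore not shown to be unchanged. The position of the Cited4 probes against the deletion is not known here. All 12 ventricular cardiomyocyte markers were above the filter, as heart tissue requires. Knockout replicate 2 stood apart by its 8 atrial markers, whose mean deviation was 1.43 on that array, against -0.39 to 0.10 on the others. Knockout replicates 1 and 4 had the lowest ventricular marker values (mean deviation -0.28 and -0.22) and the highest fibroblast marker values (0.54 and 0.40). Here a mean deviation is the mean, over a list's tested genes, of the log2 difference between an array and the gene's mean over the 8 arrays.

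Kinesins share a motor domain that turns ATP hydrolysis into movement along the microtubule, and differ in the tails that bind cargo, other microtubules or chromosomes. Mitotic kinesins push spindle poles apart, move chromosomes and build the midzone at which a dividing cell is cut, and their genes are switched on in late cell cycle. In the adult heart most cardiomyocytes have left the cell cycle, while fibroblasts, endothelial cells and leukocytes can divide, also under pressure load. Transport kinesins carry mitochondria, vesicles and mRNA in all cells, and the kinesin-2 motors serve the primary cilium.

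All 12 mitotic kinesins had a higher mean signal in knockout hearts, with a median difference of 0.20, the lowest 0.07 and the highest 0.27 (log2). The other 25 tested had a median difference of -0.05, 10 higher and 15 lower. Over the 15086 genes tested the median was 0.00 and 51.2% were higher. No kinesin passed the test: limma called 0 of 37 at an adjusted p of 0.05 (adjusted p-values 0.421 to 0.999), as it called 0% of all genes. At an unadjusted p under 0.05 there were 4 kinesins higher (3 of them mitotic) and 2 lower, 16.2% of the members tested against 11.2% of all genes. The groups did not overlap in 6 kinesins, where 5.23% of all genes were without overlap. These were 3 kinesins that were higher, against 2.33% of all genes, and 3 that were lower, against 2.9% of all genes. The 12 mitotic genes come from the same 8 hearts, so their directions are not separate observations. Bulk heart tissue was measured, so more cells of a type and more RNA per cell cannot be told apart.

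**Figure D1:**
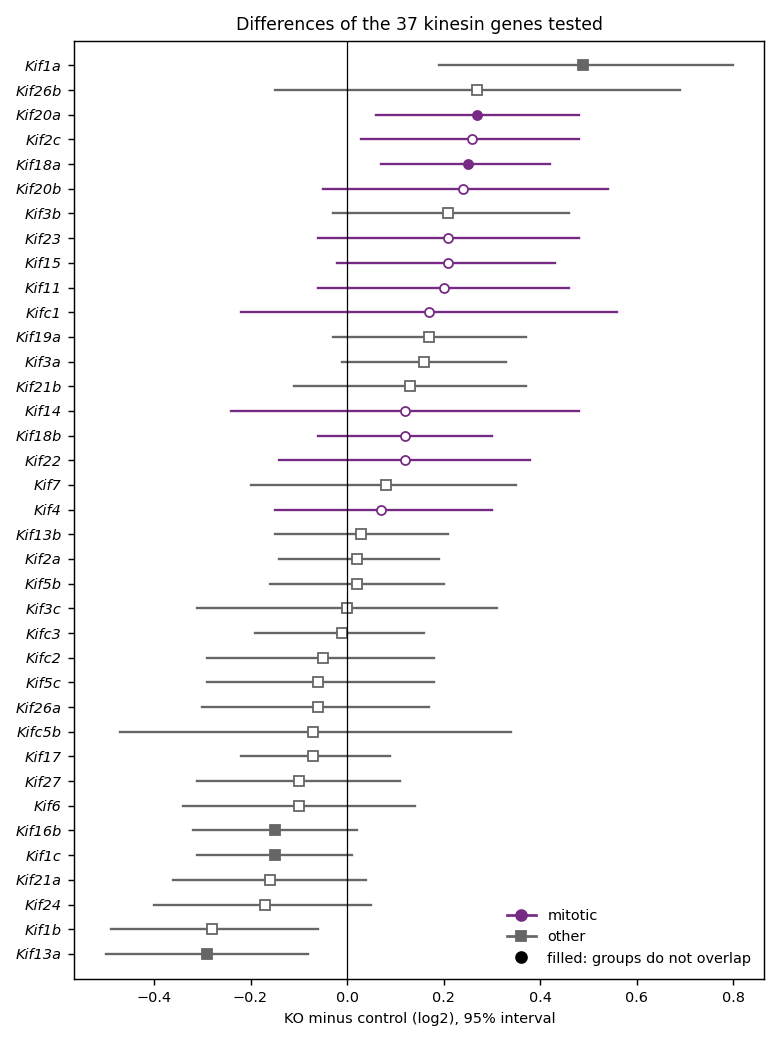
The difference between knockout (KO) and control hearts in log2 signal is plotted for each of the 37 tested kinesins with its 95% interval from limma, circles for the mitotic and squares for the other members, filled where the groups do not overlap. The 12 mitotic kinesins all lie right of 0, from 0.07 for Kif4 to 0.27 for Kif20a, while Kif1a (0.49) and Kif13a (-0.29), which are not mitotic, mark the ends of the range.

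Many promoters of late cell cycle genes carry the cell cycle genes homology region, a short element read by the MuvB complex, whose core is TTTGAA, often with CCAAT boxes bound by NF-Y upstream of it. Promoter windows of RefSeq (build GRCm38.p6, 250 bases before to 50 after each gene's start) were matched by gene identifier for 11 mitotic and 22 other kinesins. TTTGAA, read on both strands as TTTGAA or TTCAAA, was found in the windows of 10 of 11 mitotic kinesins (90.9%), of 4 of 22 other kinesins (18.2%) and in 17.9% of all 32851 promoter windows. Within 80 bases before to 30 after the start it was found in 8 of 11 mitotic kinesins, 3 of 22 other kinesins and 5.66% of all windows. CCAAT, read as CCAAT or ATTGG, was found in the whole windows of 7 of 11 mitotic and 9 of 22 other kinesins and in 37.4% of all windows. A kinesin was counted if any of its windows held the sequence, while the shares of all windows count each window singly, so the units differ. The stretches from 80 bases before to 30 after the start are shown for the 8 mitotic kinesins with the element near the start, for Kif18a, the mitotic kinesin without it, for Kifc5b, a close relative of Kifc1, and for Kif13a, a transport motor. Capitals mark TTTGAA and CCAAT on either strand, which do not overlap in these stretches, and each stretch is given on its gene's strand, 5′ to 3′.
Kif11 (chr19:37376302-37376411, plus strand): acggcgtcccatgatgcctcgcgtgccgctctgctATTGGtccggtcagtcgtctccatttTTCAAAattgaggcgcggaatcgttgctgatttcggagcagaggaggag
Kif15 (chr9:122951001-122951110, plus strand): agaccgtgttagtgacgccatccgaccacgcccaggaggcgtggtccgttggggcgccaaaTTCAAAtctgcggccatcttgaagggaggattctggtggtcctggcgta
Kif22 (chr7:127042391-127042500, minus strand): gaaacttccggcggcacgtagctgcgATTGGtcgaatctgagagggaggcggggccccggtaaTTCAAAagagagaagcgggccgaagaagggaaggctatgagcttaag
Kif18b (chr11:102925095-102925204, minus strand): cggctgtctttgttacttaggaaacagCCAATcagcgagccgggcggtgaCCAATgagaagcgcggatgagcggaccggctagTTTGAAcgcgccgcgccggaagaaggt
Kif23 (chr9:61946770-61946879, minus strand): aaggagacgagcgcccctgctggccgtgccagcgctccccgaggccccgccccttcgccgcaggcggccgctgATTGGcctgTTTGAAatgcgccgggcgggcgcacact
Kif20b (chr19:34922278-34922387, plus strand): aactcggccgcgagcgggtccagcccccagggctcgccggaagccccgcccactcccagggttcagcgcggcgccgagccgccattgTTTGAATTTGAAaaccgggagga
Kif4 (chrX:100625985-100626094, plus strand): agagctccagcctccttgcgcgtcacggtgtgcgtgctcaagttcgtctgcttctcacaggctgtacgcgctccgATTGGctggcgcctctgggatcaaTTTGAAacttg
Kifc1 (chr17:33890604-33890713, minus strand): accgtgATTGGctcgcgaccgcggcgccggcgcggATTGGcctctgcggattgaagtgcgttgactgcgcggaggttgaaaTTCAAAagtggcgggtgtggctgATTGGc
Kif18a (chr2:109280658-109280767, plus strand): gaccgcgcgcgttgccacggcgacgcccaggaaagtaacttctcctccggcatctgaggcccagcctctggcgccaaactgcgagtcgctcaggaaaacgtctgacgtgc
Kifc5b (chr17:26917011-26917120, plus strand): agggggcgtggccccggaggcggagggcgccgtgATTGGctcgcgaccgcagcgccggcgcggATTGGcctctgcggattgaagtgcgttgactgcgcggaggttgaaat
Kif13a (chr13:46929689-46929798, minus strand): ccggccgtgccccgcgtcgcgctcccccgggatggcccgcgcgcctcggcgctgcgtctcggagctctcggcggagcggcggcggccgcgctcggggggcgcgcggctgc
In Kif11, Kif15 and Kif22 the element began 17 to 19 bases before the start, and in Kif18b, Kif23, Kif20b, Kif4 and Kifc1 it began at the 2nd to 20th base from it. Kif20b held it at 2 adjoining places. Kif14 and Kif2c held it farther upstream, at 228 and 103 bases before the start. The other kinesins with a match were Kif1a, at the downstream one of its listed starts, Kif26b, Kif27 and Kifc5b, where it began at the last base of the stretch shown. A match is a run of letters and does not show that the element is used in the heart.

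Among the motors that form and steer the spindle, Kif2c and Kif18a had the largest differences. Kif18a, which walks to the plus ends of spindle microtubules and lets chromosomes line up, was at 4.94, 5.08, 5.03 and 5.20 in knockout hearts and at 4.88, 4.81, 4.72 and 4.86 in control hearts. The groups did not overlap, with a gap of 0.06 between the lowest knockout and the highest control heart. The difference was 0.25 ± 0.08 (SE), 1.19-fold, with a limma adjusted p of 0.421 and an exact two-sided permutation p of 0.0286, the smallest that 4 against 4 arrays allow.

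Kif2c, the depolymerase MCAK that corrects faulty attachments of chromosomes, was at 5.58, 5.60, 5.54 and 5.54 in knockout hearts and at 5.55, 5.20, 5.39 and 5.09 in control hearts. The knockout values had an SD of 0.03, and control replicate 1 alone reached into them. The difference was 0.26 ± 0.10 (SE; limma adjusted p = 0.421; exact permutation p = 0.0857). Kif11, the motor Eg5 that slides spindle poles apart, was at 6.27, 6.52, 6.43 and 6.34 in knockout hearts and at 6.48, 6.26, 5.98 and 6.03 in control hearts. Here too control replicate 1 lay among the knockout hearts, and the difference of 0.20 ± 0.12 (SE) was 0.30 without it and 0.13 without control replicate 3. Kif15, which can stand in for Eg5, was at 4.79, 5.08, 4.79 and 4.70 in knockout hearts and at 4.70, 4.48, 4.64 and 4.72 in control hearts. Its 3 highest knockout hearts lay above every control heart, with a difference of 0.21 ± 0.10 (SE) that was 0.12 without knockout replicate 2.

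The remaining spindle motors differed less or spread more. Kif18b, which acts on astral microtubules, differed by 0.12 ± 0.08 (SE), with knockout values from 5.69 to 5.79 and control values from 5.45 to 5.73. Kif22, a chromokinesin that binds chromosome arms, was at 5.36, 5.64, 5.58 and 5.13 in knockout hearts and at 5.24, 5.42, 5.18 and 5.39 in control hearts, so the knockout group held both the highest and the lowest value. Its difference of 0.12 ± 0.12 (SE) was 0.05 without knockout replicate 2 and 0.22 without knockout replicate 4. Kif4, a chromokinesin that also sets the length of the midzone, showed the smallest difference of the mitotic members (0.07 ± 0.10, SE). It was -0.01 without knockout replicate 2, and Kif4 was the mitotic kinesin that lost its direction without that array. Kifc1, a minus-end motor that gathers spindle poles, had knockout values of 3.85, 4.29, 4.72 and 4.46 and control values of 4.01, 3.98, 4.44 and 4.21, so its difference of 0.17 ± 0.18 (SE) lay within the spread. It was 0.04 without knockout replicate 3 and 0.33 without knockout replicate 1.

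Kifc5b, a mouse relative of Kifc1 that the symbol rule places among the other kinesins, was at 4.58, 4.72, 4.24 and 4.20 in knockout hearts and at 3.97, 4.67, 4.59 and 4.77 in control hearts (difference -0.07 ± 0.18, SE). Its promoter window matched that of Kifc1 at 239 of 272 aligned bases (87.9%), with a shared run of 68 bases. How the probe sets share their targets was not tested, so both values are uncertain. Kif4-ps, a pseudogene by its symbol, stayed below the filter, with a mean of 2.83.

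Among the motors of cytokinesis, Kif20a, which brings Aurora B to the midzone, was at 6.60, 6.56, 6.60 and 6.68 in knockout hearts and at 6.53, 6.28, 6.42 and 6.14 in control hearts. The groups did not overlap, by a margin of 0.03, and the difference was 0.27 ± 0.09 (SE; limma adjusted p = 0.421; exact permutation p = 0.0286). Kif23, the motor of centralspindlin, which bundles the midzone, was at 6.25, 6.82, 6.64 and 6.53 in knockout hearts and at 6.48, 6.24, 6.44 and 6.24 in control hearts. Knockout replicate 1 lay at the level of the lower controls, and the other 3 knockout hearts lay above every control heart (difference 0.21 ± 0.12, SE). The difference was 0.31 without knockout replicate 1 and 0.13 without knockout replicate 2.

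Kif20b, needed for the last cut between daughter cells, was at 5.50, 5.74, 5.55 and 5.36 in knockout hearts and at 5.61, 5.29, 4.98 and 5.29 in control hearts, a difference of 0.24 ± 0.13 (SE). It was 0.14 without control replicate 3, whose value was the lowest, and 0.35 without control replicate 1, whose value was the highest of the controls. Kif14, which recruits citron kinase to the midbody, was at 5.07, 4.96, 4.58 and 4.29 in knockout hearts and at 4.61, 4.47, 4.55 and 4.79 in control hearts. The knockout hearts lay on both sides of the controls, and the difference of 0.12 ± 0.16 (SE) was 0.01 without knockout replicate 1 and 0.27 without knockout replicate 4.

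**Figure D2:**
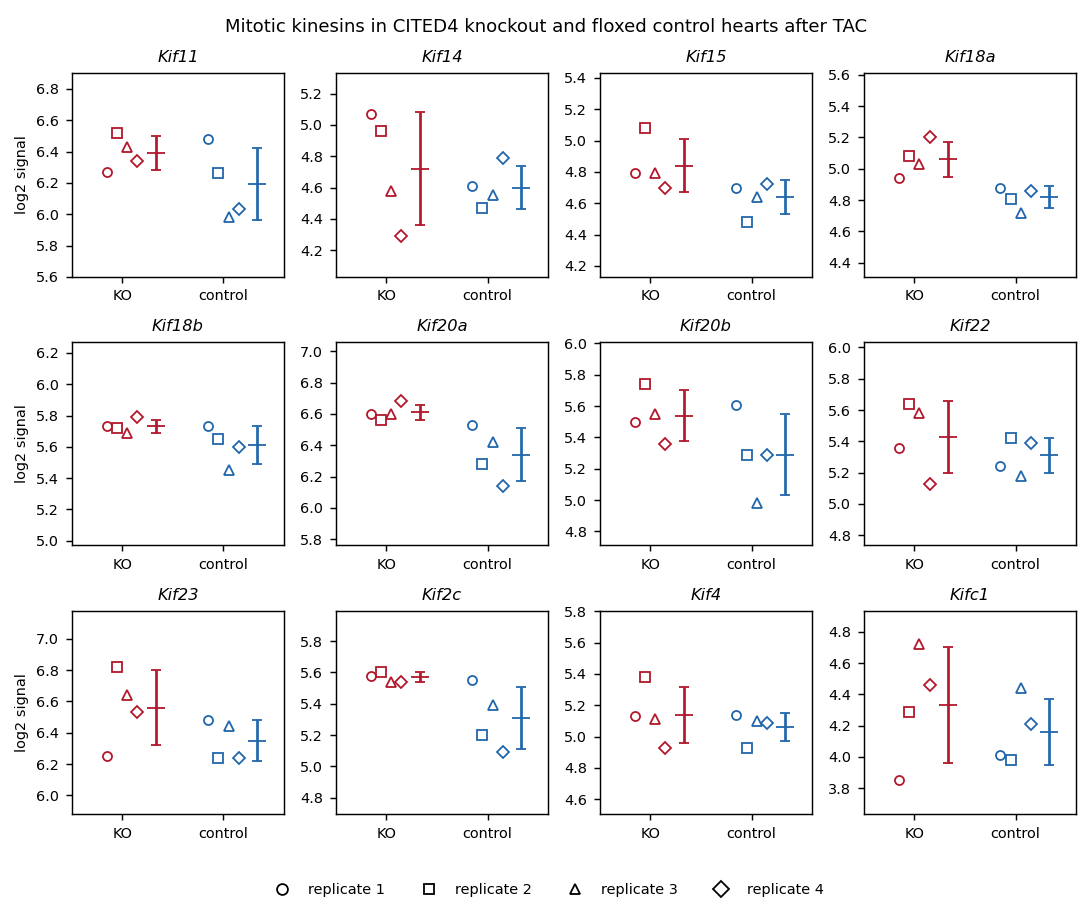
Each panel plots the log2 signal of a mitotic kinesin in the 4 knockout (KO, left) and 4 control hearts (right), 1 symbol shape per replicate number, with the mean and SD beside the points, on axes of equal length. Kif18a and Kif20a separate the groups, while Kif14 and Kifc1 spread widely among the knockout hearts.

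The knockout hearts differed among themselves in the mitotic kinesins. The mean deviation of the 12 genes was 0.02, 0.22, 0.12 and 0.01 in knockout replicates 1 to 4, against 0.01, -0.15, -0.13 and -0.11 in control replicates 1 to 4. Control replicate 1 thus stood level with knockout replicates 1 and 4, and the other 3 controls stood below every knockout heart. Knockout replicate 2 held the highest value of the 8 arrays in 7 of the 12 genes. That array was also the highest in atrial markers (1.43; 6 of 8 tested markers higher in knockout hearts, summed log2 signal 48.5 to 63.1 in knockout and 48.7 to 52.4 in control hearts) and in endothelial markers (0.22). Their part in the result was not tested. Without that array the median of the mitotic kinesins was 0.14, and 11 of 12 were higher. Without control replicate 1 the median was 0.24, and 6 of the 12 did not overlap between the groups (Kif2c, Kif11, Kif18a, Kif18b, Kif20a and Kif20b), where 7.28% of all genes were higher without overlap. Each of these arrays was the highest of its group in the mitotic kinesins, so both shifts follow from the choice of array. The share of all genes does not correct for that choice.

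Cells that can divide were followed by their markers. The 10 fibroblast markers, of which 8 were higher (median 0.48), had mean deviations of 0.54, 0.09, -0.21 and 0.40 in knockout hearts and of 0.25, -0.38, -0.46 and -0.22 in control hearts. Their summed log2 signal ran from 89.2 to 96.7 in knockout hearts and from 86.7 to 93.8 in control hearts. At an unadjusted p under 0.05 with limma 5 of them were higher (50%, against 11.2% of all genes), and 0 separated the groups. Knockout replicate 3, with the second highest mitotic value, had the lowest fibroblast value of the knockout hearts. Knockout replicate 1, with the highest fibroblast value, stood level with control replicate 1 for mitotic kinesins. Control replicate 1 was the highest control for fibroblast markers (0.25) and for mitotic kinesins (0.01), and the other controls were negative in both. Macrophage and leukocyte markers were higher for 9 of 11, with a median of 0.13 and 0 at that p. Their summed signals were 83.3 to 86.3 in knockout hearts and 81.9 to 85.0 in control hearts. By array the mean deviations were 0.13, -0.06, 0.20 and -0.07 in knockout hearts and 0.09, -0.08, -0.20 and -0.0 in control hearts. Endothelial markers were higher for 3 of 10, with a median of -0.03 and 1 lower marker at that p. Their summed signals were 85.4 to 89.3 in knockout hearts and 86.7 to 88.2 in control hearts. Here the mean deviations were -0.17, 0.22, -0.06 and -0.07 in knockout hearts and 0.11, 0.05, -0.04 and -0.04 in control hearts. The part of these cells in the mitotic values was not tested. Leaving out knockout replicates 1 and 4 was added once their marker values had been seen. Without them the median of the mitotic kinesins was 0.28. They were the lowest knockout hearts for the mitotic kinesins (mean deviation 0.02 and 0.01). A higher median thus follows from their removal and cannot speak to the part of fibroblasts.

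Genes of proteins that work with mitotic kinesins were higher on average too. Of 29 measured genes of the spindle, kinetochore and cytokinesis list all 29 were higher in knockout hearts, with a median of 0.22, where 51.2% of all genes were higher. At an unadjusted p under 0.05 there were 10 (34.5%, against 11.2% of all genes), and 4 did not overlap between the groups (13.8%, against 5.23% of all genes). None passed over all genes with limma (0 of 29, lowest adjusted p = 0.277). Ckap2l, which encodes a protein of the mitotic spindle, was at 4.94, 4.89, 4.98 and 4.91 in knockout hearts and at 4.56, 4.49, 4.31 and 4.45 in control hearts. The groups did not overlap, with a difference of 0.48 ± 0.08 (SE; limma adjusted p = 0.277). Tpx2, which recruits Aurora A to the spindle, differed by 0.37 ± 0.10, Ccnb2, encoding cyclin B2, by 0.30 ± 0.08, and Cdca8, of the chromosomal passenger complex that Kif20a moves, by 0.38 ± 0.11 (SE), and none of the 3 overlapped between groups. Over the list, the mean deviation was 0.02, 0.18, 0.17 and 0.08 in knockout replicates 1 to 4 and 0.08, -0.11, -0.16 and -0.25 in control replicates 1 to 4. Knockout replicates 2 and 3 were thus the highest arrays for the partners as for the motors, and control replicate 1 was the highest control for both.

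**Figure D3:**
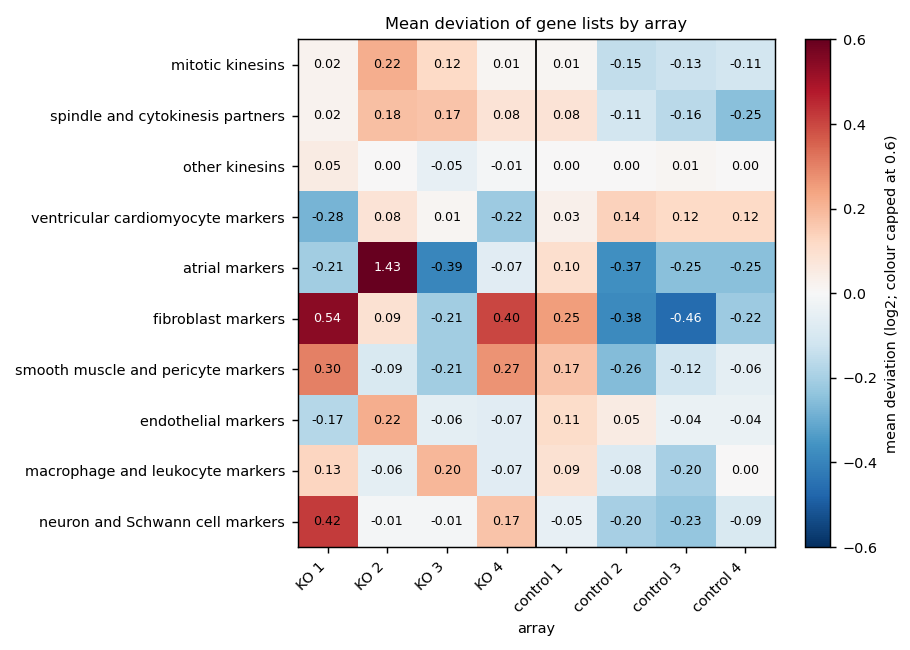
Each cell gives the mean deviation of a gene list on an array, in log2 units, with knockout (KO) arrays left and control arrays right. The mitotic kinesins run from 0.22 in knockout replicate 2 to -0.15 in control replicate 2, the other kinesins stay between -0.05 and 0.05, and atrial markers reach 1.43 in knockout replicate 2.

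Kinesin-3 holds long-range transport motors. Without the mitotic Kif14, 6 members were tested, of which 2 were higher and 4 lower, and 4 did not overlap between the groups (66.7%, against 5.23% of all genes). The subfamily was looked at separately with these values known. Of the 4, Kif1a and Kif1c overlapped between the groups when quantile normalization was applied again. Kif13a, which carries mannose 6-phosphate receptors and recycling endosomes, was at 7.77, 8.11, 8.03 and 7.77 in knockout hearts and at 8.24, 8.14, 8.21 and 8.26 in control hearts. All knockout hearts lay below all control hearts, and the difference was -0.29 ± 0.10 (SE), 81.7% of the control signal (limma adjusted p = 0.421; exact permutation p = 0.0286). Kif1b, which carries mitochondria and synaptic vesicle precursors, was at 7.81, 8.18, 8.07 and 7.85 in knockout hearts and at 8.17, 8.35, 8.26 and 8.23 in control hearts. Knockout replicate 2 and control replicate 1 met at the border of the groups, and the difference was -0.28 ± 0.10 (SE; limma adjusted p = 0.421).

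Kif1c, a motor of Golgi to endoplasmic reticulum traffic and of podosome regulation, was at 9.58, 9.59, 9.67 and 9.45 in knockout hearts and at 9.71, 9.75, 9.71 and 9.73 in control hearts. The controls, with an SD of 0.02, lay above every knockout heart, with a difference of -0.15 ± 0.07 (SE; limma adjusted p = 0.459). Kif16b, which moves early endosomes, was at 7.72, 7.83, 7.82 and 7.61 in knockout hearts and at 7.87, 7.93, 7.89 and 7.90 in control hearts. Its controls were as close together (SD 0.02) and again above all knockout hearts, with a difference of -0.15 ± 0.07 (SE; limma adjusted p = 0.477). Kif13b, a motor linked to growth factor receptor transport, differed by 0.03 ± 0.08 (SE; 95% interval -0.15 to 0.21).

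In Kif13a, Kif1b and Kif16b knockout replicates 1 and 4 were the lowest arrays, and in Kif1c knockout replicate 4 was. The same arrays had the lowest ventricular cardiomyocyte markers, of which 11 of 12 were lower in knockout hearts (median -0.16, summed log2 signal 135.2 to 139.5 in knockout hearts and 139.0 to 140.3 in control hearts). Of these markers 5 were lower at an unadjusted p under 0.05 with limma (41.7%, against 11.2% of all genes). The groups did not overlap in 2 of them, both lower (16.7%, against 5.23% of all genes). The part of the cardiomyocyte share in these kinesins was not tested. Without knockout replicates 1 and 4 the differences were smaller: -0.14 for Kif13a, -0.13 for Kif1b, -0.07 for Kif16b and -0.10 for Kif1c. None was at an unadjusted p under 0.05 with limma (0.132, 0.185, 0.387 and 0.263 in that order). Those arrays were the lowest knockout hearts for these genes, so smaller differences follow from their removal, and fewer arrays also weaken the test. The values thus cannot speak to the part of the cardiomyocyte share.

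Kif1a, best known as the axonal motor of synaptic vesicle precursors, had the largest difference of the 37 kinesins tested and was higher in knockout hearts. It was at 5.45, 5.05, 4.96 and 5.31 in knockout hearts and at 4.82, 4.49, 4.95 and 4.52 in control hearts. The groups did not overlap, by a margin of 0.01 between knockout replicate 3 and control replicate 3, and the difference was 0.49 ± 0.14 (SE), 1.41-fold, with a 95% interval of 0.19 to 0.80 (limma adjusted p = 0.421; exact permutation p = 0.0286). Neuron and Schwann cell markers, of which 5 of 11 measured were above the filter, had mean deviations of 0.42, -0.01, -0.01 and 0.17 in knockout hearts and of -0.05, -0.20, -0.23 and -0.09 in control hearts. Knockout replicates 1 and 4 were the highest arrays for these markers as for Kif1a. The same arrays were also the highest for fibroblast markers (0.54 and 0.40) and for smooth muscle and pericyte markers (0.30 and 0.27). Without these arrays the Kif1a difference was 0.31, no longer at an unadjusted p under 0.05 with limma. A smaller difference follows from leaving out the highest arrays. The part of nerve tissue or of these other cells in the Kif1a value was not tested.

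**Figure D4:**
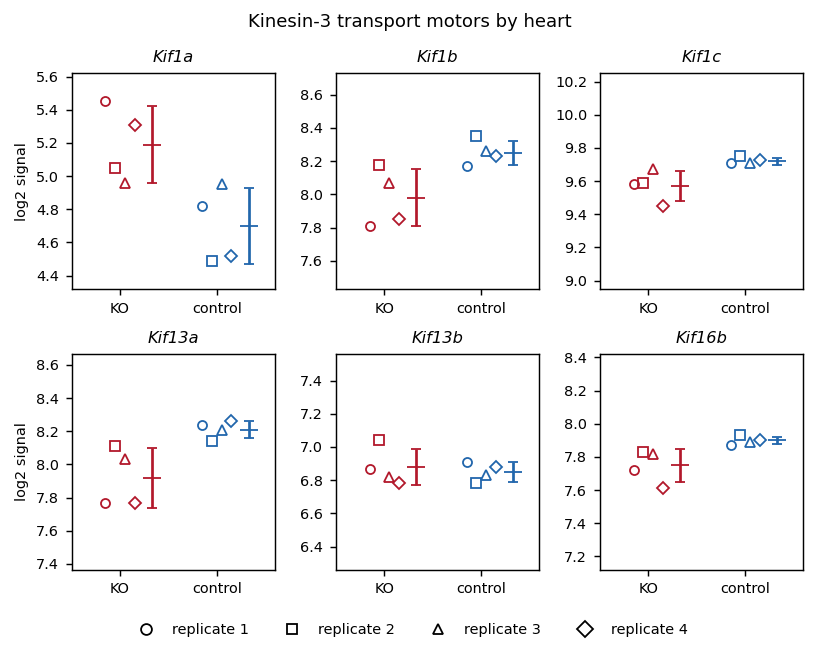
Log2 signals of the 6 kinesin-3 transport motors are plotted in the 4 knockout (KO, left) and 4 control hearts (right), 1 symbol shape per replicate number, with mean and SD beside the points, on axes of equal length. Kif1c, Kif13a and Kif16b lie lower in every knockout heart, Kif1a lies higher, and Kif13b overlaps between the groups.

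Kinesin-1 is the main motor of mitochondria and many other cargoes. Kif5b, its form in most tissues, was at 10.26, 9.97, 10.03 and 10.17 in knockout hearts and at 10.10, 10.13, 10.08 and 10.04 in control hearts. The knockout hearts lay on both sides of the controls, with a difference of 0.02 ± 0.08 (SE; 95% interval -0.16 to 0.20). Its second probe set, with a mean of 3.54, lay below the filter and differed by 0.16. Of the forms known from neurons, Kif5c differed by -0.06 ± 0.11 (SE), and Kif5a was below the filter with a mean of 3.70.

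Kinesin-2 motors drive transport into the primary cilium. Kif3a was at 6.83, 6.67, 6.66 and 6.82 in knockout hearts and at 6.68, 6.51, 6.56 and 6.58 in control hearts, a difference of 0.16 ± 0.08 (SE; limma adjusted p = 0.463). Control replicate 1 alone reached into the knockout values. Kif3b, its partner in the heterotrimer, was at 6.09, 5.66, 5.66 and 5.69 in knockout hearts and at 5.52, 5.47, 5.55 and 5.72 in control hearts. The difference of 0.21 ± 0.11 (SE) was 0.11 without knockout replicate 1, the highest array. Kif3c, an alternative partner, differed by -0.0004 ± 0.14 (SE), with knockout values from 4.98 to 5.71 on both sides of control values from 5.28 to 5.47. Kif17, a homodimeric member of dendrites and cilia, differed by -0.07 ± 0.07 (SE).

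In the other ciliary and Hedgehog-linked members the groups overlapped. Kif7, which acts at the cilium tip in Hedgehog signalling, differed by 0.08 ± 0.12 (SE), and its second probe set (mean 3.99) by -0.13, so the probe sets disagreed in sign. Kif27, its relative, differed by -0.10 ± 0.09 and in its second probe set (mean 2.93) by -0.07. Kif24, which acts at the mother centriole to hold back cilia, had knockout values of 3.68 to 4.12 and control values of 4.07 to 4.19 (difference -0.17 ± 0.10, SE). It was -0.08 without knockout replicate 2. Kif19a, which sets cilium length, differed by 0.17 ± 0.09, and Kif6, a motor of ependymal cilia, by -0.10 ± 0.11 (SE). The Kif6 difference was -0.02 without knockout replicate 4 and likewise without control replicate 4. Kif9, of motile cilia and sperm flagella, was below the filter with a mean of 2.94.

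Kif26b, an atypical kinesin that takes part in Wnt5a-Ror signalling, was at 6.55, 5.69, 5.79 and 6.27 in knockout hearts and at 6.05, 5.51, 5.88 and 5.77 in control hearts. Knockout replicates 1 and 4 were the highest arrays, as they were for fibroblast, smooth muscle and pericyte, and nerve markers. The difference of 0.27 ± 0.19 (SE) was -0.06 without them, and a lower value follows from leaving out the highest arrays. The part of these cells in the Kif26b value was not tested. Kif26a, its relative, differed by -0.06 ± 0.11 (SE). Kif21a and Kif21b, which restrain microtubule growth, differed by -0.16 ± 0.09 and 0.13 ± 0.11 (SE), with overlapping groups in each. Kif2a, a depolymerase of interphase and neuronal microtubules as well as of spindle poles, differed by 0.02 ± 0.07 (SE; 95% interval -0.14 to 0.19).

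The minus-end motors Kifc2, known from neurons, and Kifc3, which acts at adherens junctions, differed by -0.05 ± 0.11 and -0.01 ± 0.08 (SE). Kif12, known from kidney and liver, and Kif2b were below the filter, with means of 3.75 and 2.93. The 5 members below it, with Kif4-ps, Kif5a and Kif9, differed by -0.06 to 0.14 and were not tested.

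**Figure D5:**
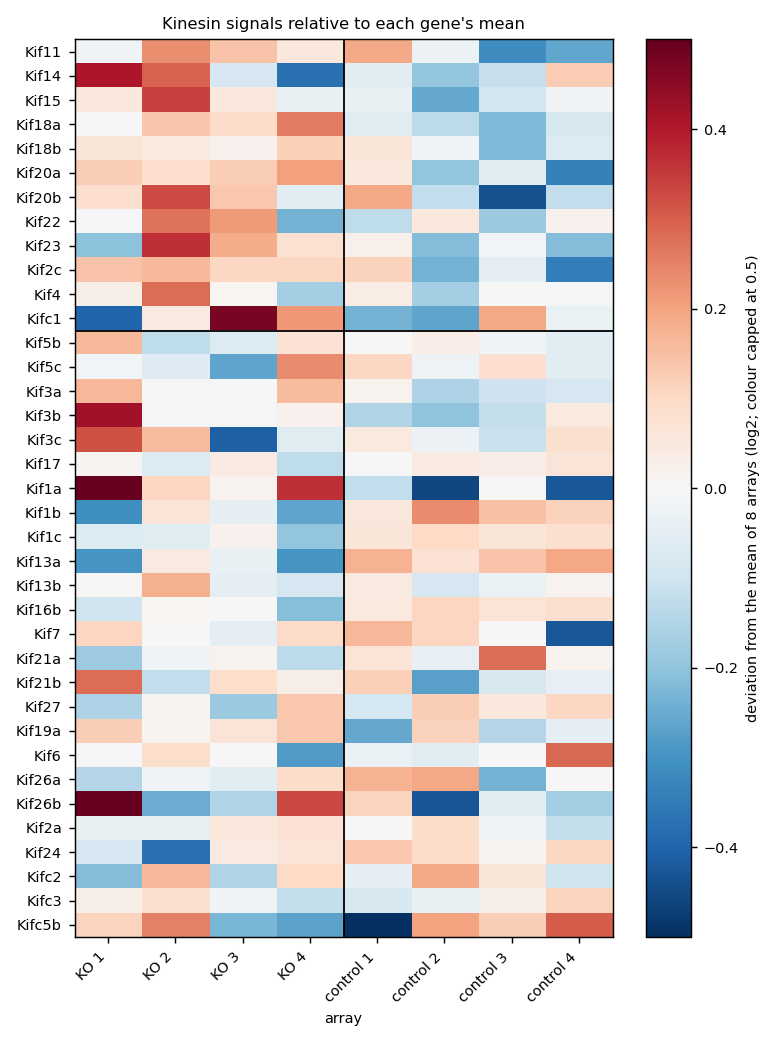
Signals of the 37 tested kinesins are shown relative to each gene's mean over the 8 arrays (log2, red above and blue below, colour capped at 0.5), with knockout (KO) arrays left of the vertical line, control arrays right of it, and the 12 mitotic members above the horizontal line. Knockout replicate 2 is the highest array in 7 mitotic members, and knockout replicates 1 and 4 are low in Kif1b, Kif13a and Kif16b.

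Partners of transport kinesins were split in direction. Higher means were found for 9 of 23 tested cargo adaptor and light chain genes and lower means for 14 (median -0.01), and 1 higher and 4 lower had an unadjusted p under 0.05 (21.7%, against 11.2% of all genes). Plekhm2, which links the lysosome to kinesin-1, was at 7.68, 7.71, 7.77 and 7.69 in knockout hearts and at 7.86, 7.94, 8.04 and 7.92 in control hearts, with no overlap (difference -0.23 ± 0.07, SE; limma adjusted p = 0.421). Rhot2 and Trak1, which tie mitochondria to kinesin-1, differed by -0.28 ± 0.11 and -0.17 ± 0.07, and Sybu, an adaptor of axonal cargo, by -0.25 ± 0.11 (SE). Trak1 did not overlap between the groups either, and these 2 genes were 8.7% of the list, against 5.23% of all genes. None of the 23 passed with limma (0, lowest adjusted p = 0.421).

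Cytoplasmic dynein, the motor of the opposite direction, was higher for 18 of 24 tested genes, with a median of 0.07. The groups did not overlap in 2 that were higher and 1 that was lower (12.5%, against 5.23% of all genes). Dynll2, a light chain and the lower one of these, differed by -0.25 ± 0.08, Hook2, an activating adaptor, by 0.36 ± 0.14, Dync2h1, the heavy chain of ciliary dynein, by 0.19 ± 0.10, and Hook3 by -0.13 ± 0.07 (SE). Of 29 ciliary genes 19 were higher, with a median of 0.03. Among them Ift46 differed by 0.29 ± 0.10, Pkd1, encoding polycystin-1, by 0.22 ± 0.09, Ift81 by -0.25 ± 0.12 and the Hedgehog factor gene Gli2 by 0.26 ± 0.13 (SE). At an unadjusted p under 0.05 there were 1 dynein gene higher and 1 lower (8.33%) and 2 ciliary genes higher (6.9%), both shares below the 11.2% of all genes. With limma 0 in either list passed.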

How the data were processed

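Heart RNA was biotin-labelled and hybridised to Affymetrix arrays, per the labels' protocols. The authors deposited RMA log2 values, 41345 probe sets on each of 8 arrays. The submitters' processing notes name RMA and limma and give no versions. RMA equalises the arrays, which hides any change common to all genes. The sources used here do not give array batches, scan dates or probe positions.

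The annotation gave 1 symbol for 23521 probe sets, of which 23328 matched RefSeq by Entrez identifier, several for 1814 and none for 16010. Knockout minus control was fitted with limma 3.58.1 in R 4.3.3 over 15086 genes (mean log2 signal of at least 3.80), with Benjamini-Hochberg adjustment at 0.05. SE and intervals are limma's. Simulated data with 4 against 4 arrays and 15086 independent genes were put through this step. It found 52 of the 100 genes shifted by 0.5 and 97 of the 100 shifted by 1, and made 6 wrong calls. Genes measured in the same hearts are not separate observations, so such rates need not hold for the real arrays. There Cited4, at a difference of -0.91, had a limma adjusted p of 0.277 and was not called. Exact permutation tests used all 70 assignments. Members, gene lists and motifs were chosen with earlier results of these data known, so counts and medians of lists are descriptions. Every member was named, and 4 genes per partner list by smallest p. The labels do not say that replicate numbers pair the samples, so numbers were not used as pairs. Same-numbered arrays deviated together for replicates 1 and 3 (correlations 0.36 and 0.28) and not for replicates 2 and 4 (0.01 and -0.03). Alternatives were the filter, the mean of probe sets, scaling, variance model, replicate block and leaving out each array.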

Additional observations from a re-analysis of the deposited data

Results flagged for a closer look

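In 2 of 86 groups of 4 arrays (42 kinesins and Cited4, 2 groups each) a single array lay far from the other 3, and chance alone gives about 1 in 20. Kif3b was at 6.09 in knockout replicate 1, against 5.66 to 5.69 in the other knockout hearts. Kif6 was at 5.03 in control replicate 4, against 4.69 to 4.74 in the other control hearts.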

How the results depend on the processing

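Under each of 16 alternatives 0 kinesins passed the limma test (lowest adjusted p = 0.183, Kif1a with the replicate block), with 4 to 9 at an unadjusted p under 0.05. The share of all genes at that p is given only for the main fit (11.2%). Such counts under the alternatives therefore cannot be set against all genes. The median of the mitotic kinesins ran from 0.14 to 0.28 over all alternatives. That of the other kinesins ran from -0.08 with a common median to -0.00039 when genes had to reach the 60th percentile. It was -0.07 with quantile normalization applied again, -0.01 with no filter, and -0.05 to -0.00061 on leaving out single arrays. With the replicate block, whose numbers are not known to pair the arrays, 7 kinesins had an unadjusted p under 0.05, against 6 without it, and no call changed. Leaving out single arrays, 6 to 12 kinesins did not overlap, 3 to 8 of them higher and 3 to 4 lower. The highest counts came without control replicate 1 (8 higher, 4 lower), and 5 were higher without control replicate 4. Fewer arrays make separation easier, and all genes then gave 7.28% and 3.55% higher without overlap. Without knockout replicates 1 and 4 there were 11 (6 higher, 5 lower), where all genes gave 6.24% higher and 6.17% lower without overlap. The dynein median was 0.02 without these arrays. With a common median 2 were higher and 4 lower, against 3 and 3, while all genes moved likewise, to 1.49% higher and 4.41% lower, against 2.33% and 2.9%. There Kif20a no longer separated the groups, and Kif1b did. With quantile normalization applied again 4 were higher and 3 lower, where all genes gave 2.11% and 3.01%. Kif1a and Kif1c then overlapped, while Kif2c, Kif3a and Kif17 did not. Of 37 kinesins 26 kept their sign in all alternatives. The sign turned for Kif7 with the mean of its probe sets (-0.03), for Kif2a (-0.0026) and Kif5b (-0.01) with a common median, and without knockout replicates 1 and 4 for Kif26b (-0.06), Kif5b (-0.09) and Kifc3 (0.02). On leaving out single arrays the ranges that crossed 0 were Kif5b -0.03 to 0.06, Kifc2 -0.12 to 0.01, Kif13b -0.03 to 0.06, Kif4 -0.01 to 0.14, Kif3c -0.11 to 0.14, Kif5c -0.14 to 0.02, Kifc3 -0.04 to 0.02, Kifc5b -0.24 to 0.03, Kif2a -0.01 to 0.06 and Kif7 -0.05 to 0.14. Among the differences that moved by over 1.5 times with the loss of 1 array and kept their sign were Kif18b (0.07 to 0.16), Kif17 (-0.09 to -0.04), Kif19a (0.11 to 0.23), Kif21a (-0.20 to -0.09), Kif21b (0.06 to 0.19), Kif26a (-0.15 to -0.01), Kif26b (0.11 to 0.40) and Kif27 (-0.16 to -0.05). The causes were not tested.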
